A study of Mus musculus with 6 samples.

Results

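Cytochrome P450 genes of families 1 to 4, which include the enzymes that oxidise drugs and other foreign compounds, were described in the livers of mice that lack *Surf4* in hepatocytes and of their controls. Members were the gene symbols of these families that end in a number and had a mean of at least 1 TPM over the 6 mice. TPM are transcript abundances that are corrected for transcript length and brought to a common total in each mouse, so that levels of different genes can be compared. *Cyp2e1*, *Cyp1a2*, *Cyp4a10* and *Cyp4a14* were left out by name. This rule gave 46 genes of 35540 gene symbols in all, and of 77 family symbols that end in a number 27 lay under 1 TPM. The measured level chose the members, so that their being expressed is not a result. For *Cyp2b13* and *Cyp3a44* the mean reached 1 TPM through the females, and for *Cyp2g1* through the Alb-Cre+ mice.

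Liver RNA of 6 C57BL/6 J mice was sequenced, 3 of them *Surf4* fl/fl Alb-Cre+ and the other 3 *Surf4* fl/fl Alb-Cre- controls. All 6 mice carried the conditional allele, in which loxP sites flank exon 2 of *Surf4*, which encodes a cargo receptor for the export of secreted proteins from the endoplasmic reticulum. In Alb-Cre+ mice the Albumin promoter drives Cre, so that hepatocytes lose the exon and other cells of the liver keep it. Each genotype had 2 males, replicates 1 and 3, and 1 female, replicate 2. The ages of these mice were not given in the sources used here. The methods describe an overnight fast before tissue collection in general, and the labels give free access to food.

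Cytochrome P450 enzymes are haem proteins of the endoplasmic reticulum membrane that insert an atom of oxygen into their substrates with electrons from NADPH. Hepatocytes hold most of the enzymes of families 2 and 3, many of which accept drugs, toxins and steroids, while family 4 mostly hydroxylates the ends of fatty acid chains. In the mouse these families have grown by local duplication into clusters of near-identical genes. The nuclear receptors CAR (*Nr1i3*) and PXR (*Nr1i2*) are known to induce Cyp2b and Cyp3a genes, and the pattern of growth hormone release sets many of the sex differences.

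The hepatocyte identity of the tissue was plain in the marker genes, with *Alb*, *Ttr*, *Apoa1*, *Apoc3*, *Serpina1c*, *Tat*, *Tdo2* and *Cps1* together at 66919 to 92868 TPM. The pancreas markers *Cpa1*, *Cela3b* and *Pnlip* were listed at 0 in every mouse. *Surf4* itself, summed over the whole gene and so including RNA without exon 2, was 93.2 ± 1.17 TPM (SD, n = 3) in Alb-Cre- and 61.7 ± 9.07 TPM (SD, n = 3) in Alb-Cre+ livers, and the groups did not overlap. In the limma comparison used for the members its unadjusted p was 0.00269 and its adjusted p 0.9999, so that the deleted gene was not called either. Y-linked transcripts matched the labelled sex of all 6 mice. Deviations from the genotype means correlated at 0.367 to 0.588 over genes between mice of the same replicate number. Between different numbers they correlated at -0.444 to -0.351 for a male and a female, and at 0.0914 and 0.171 for males. The 0.588 belonged to number 2, the female of each genotype, for which shared number and shared sex cannot be told apart. The depth behind the TPM is unknown, and the number of mice limits the precision.

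The sequences upstream of *Cyp2b9* and *Cyp2b13* and of 4 adjacent Cyp2c genes are shown first, because the values of these near-identical neighbours are compared gene by gene. The 250 bases before the RefSeq start of 38 of the 46 members were read in build GRCm38.p6. In *Cyp2b9* (chr7:26173159-26173408, plus strand) and *Cyp2b13* (chr7:26061245-26061494, plus strand) 248 of 250 bases were identical, and capitals mark the 2 bases that differ.
Cyp2b9: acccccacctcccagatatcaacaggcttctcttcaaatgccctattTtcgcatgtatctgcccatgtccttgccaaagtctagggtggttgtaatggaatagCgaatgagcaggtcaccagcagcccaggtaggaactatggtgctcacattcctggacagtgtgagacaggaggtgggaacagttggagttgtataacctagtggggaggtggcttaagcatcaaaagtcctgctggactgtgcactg
Cyp2b13: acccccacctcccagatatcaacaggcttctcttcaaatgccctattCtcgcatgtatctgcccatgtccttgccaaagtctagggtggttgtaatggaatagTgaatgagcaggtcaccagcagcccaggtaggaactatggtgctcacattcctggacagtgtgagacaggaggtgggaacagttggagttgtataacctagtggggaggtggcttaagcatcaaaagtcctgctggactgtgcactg

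The adjacent genes *Cyp2c67* (chr19:39649043-39649292), *Cyp2c68* (chr19:39741102-39741351), *Cyp2c40* (chr19:39812815-39813064) and *Cyp2c69* (chr19:39886770-39887019) all lie on the minus strand. RefSeq and GENCODE place the starts of *Cyp2c67*, *Cyp2c68* and *Cyp2c69* at different bases. The last bases of the *Cyp2c67* and *Cyp2c69* windows lie inside the GENCODE gene, and the *Cyp2c68* window stops short of the GENCODE start. *Cyp2c40* and *Cyp2c69* had 217 identical bases in an alignment of 220. In these sequences capitals mark the letters CAAAGTCCA, a binding motif of the hepatocyte factor HNF4A, and ATTGAT, a core motif of HNF6. The *Cyp2c40* window ends before the bases that would align with ATTGAT of *Cyp2c69*, so that its lack of ATTGAT describes the window only. In *Cyp2c69* the marked ATTGAT lies inside the GENCODE gene.
Cyp2c67: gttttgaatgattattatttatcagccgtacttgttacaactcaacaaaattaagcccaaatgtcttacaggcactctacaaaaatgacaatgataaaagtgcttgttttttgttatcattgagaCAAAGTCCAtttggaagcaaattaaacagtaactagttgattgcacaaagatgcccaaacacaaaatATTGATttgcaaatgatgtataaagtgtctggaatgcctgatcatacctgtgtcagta
Cyp2c68: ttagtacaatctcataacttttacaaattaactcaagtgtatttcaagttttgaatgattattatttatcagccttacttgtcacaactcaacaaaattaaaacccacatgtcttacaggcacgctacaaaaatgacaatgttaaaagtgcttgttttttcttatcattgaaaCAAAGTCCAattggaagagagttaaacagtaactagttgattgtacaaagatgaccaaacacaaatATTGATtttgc
Cyp2c40: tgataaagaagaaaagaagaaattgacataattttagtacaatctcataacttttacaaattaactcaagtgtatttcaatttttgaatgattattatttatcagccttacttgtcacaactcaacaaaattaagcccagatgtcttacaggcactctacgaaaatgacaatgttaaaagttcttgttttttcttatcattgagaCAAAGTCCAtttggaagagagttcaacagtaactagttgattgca
Cyp2c69: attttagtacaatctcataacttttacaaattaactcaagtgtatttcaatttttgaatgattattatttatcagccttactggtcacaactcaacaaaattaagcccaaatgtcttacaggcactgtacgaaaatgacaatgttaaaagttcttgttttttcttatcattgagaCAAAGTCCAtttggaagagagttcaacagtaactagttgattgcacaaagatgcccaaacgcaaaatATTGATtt

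CAAAGTCCA was found on either strand in 6 of the 38 member sequences (15.8%), which were *Cyp2c40*, *Cyp2c67*, *Cyp2c68*, *Cyp2c69*, *Cyp2c70* and *Cyp3a11*, and in 0.4% of 27025 such sequences of all genes. ATTGAT was found in 8 (21.1%) against 6.98%, and TATAAA, the core of the TATA box, in 16 (42.1%) against 12.9%. TTCNNNGAA, the motif of STAT5, was in 2 (5.26%, *Cyp4b1* and *Cyp4f13*) against 7.11%. No match overlapped one of another motif. Because members share ancestry, their matches are not independent of each other, and a match describes letters and not a bound site.

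The 46 members spanned a wide range of levels, from 1.24 TPM for *Cyp2g1*, best known from the olfactory mucosa, to 2194 TPM for *Cyp3a11*, the main Cyp3a enzyme of mouse liver. The median member had a mean of 57.5 TPM, 18 members exceeded 100 TPM and 8 lay under 10 TPM. They fell into 14 subfamilies, of which Cyp2c was the largest with 12 genes, followed by Cyp2d with 6 and Cyp3a and Cyp4f with 5 each. Family 1 had no member, since *Cyp1a2*, which oxidises caffeine and averaged 113 TPM, was left out by name, and *Cyp1a1*, the enzyme induced by dioxin-like compounds, averaged 0.281 TPM and *Cyp1b1* 0.256 TPM.

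**Figure D1:**
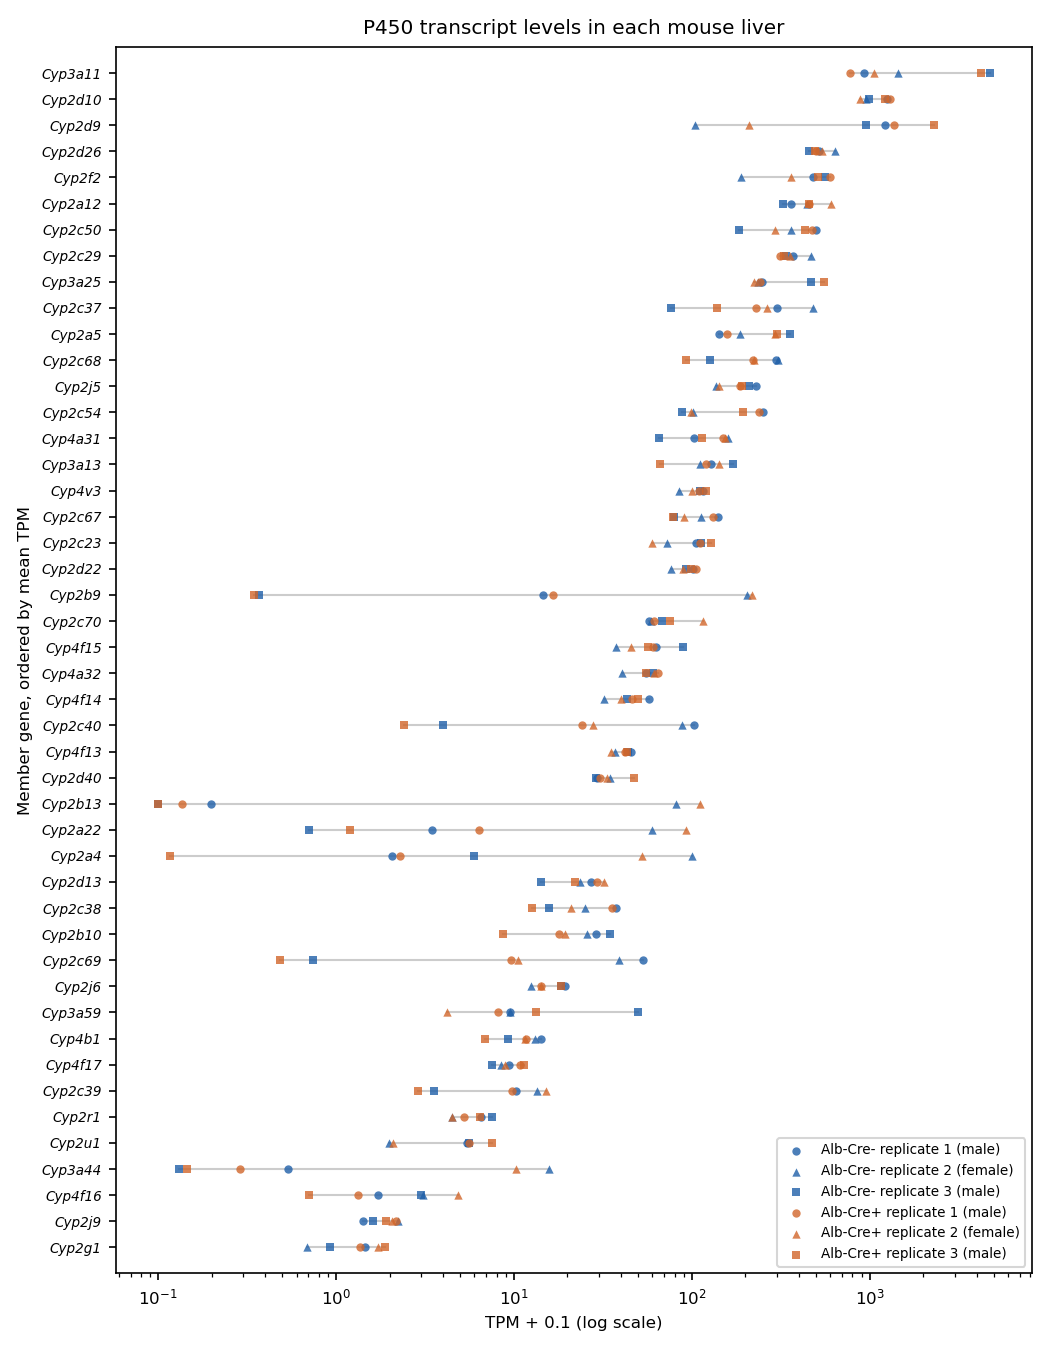
TPM + 0.1 on a log axis for each of the 46 members, ordered by mean. Blue marks Alb-Cre- and orange Alb-Cre+ mice, circles replicate 1 (male), triangles replicate 2 (female) and squares replicate 3 (male), and grey lines span the 6 mice. Highest over lowest mouse was at least 10-fold for 9 members, counting Cyp2b13, which was listed at 0 in 2 males, and under 2-fold for 16.

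The 6 highest members were *Cyp3a11*, *Cyp2d10*, *Cyp2d9*, *Cyp2d26*, *Cyp2f2* and *Cyp2a12*, and together they made up 49.4% to 73.7% of the members' TPM. *Cyp3a11* was at 923, 1445 and 4769 TPM in Alb-Cre- replicates 1 to 3 and at 773, 1051 and 4202 TPM in the same replicates of Alb-Cre+. Both replicate 3 mice stood above the other 4. *Cyp2d10* was even, at 1254, 956 and 990 TPM in Alb-Cre- and 1306, 877 and 1219 TPM in Alb-Cre+. *Cyp2d26* was at 516, 638 and 458 TPM in Alb-Cre- and 498, 540 and 493 TPM in Alb-Cre+. For these 2 genes of the Cyp2d cluster, highest over lowest mouse was 1.49 and 1.39. *Cyp2d9*, a steroid 16-alpha-hydroxylase known as male-specific, had 1221, 105 and 955 TPM in Alb-Cre- and 1374, 209 and 2303 TPM in Alb-Cre+, with the low value of each triplet in the female. *Cyp2f2*, an enzyme of periportal hepatocytes that activates naphthalene, was at 483, 189 and 563 TPM in Alb-Cre- and 595, 361 and 515 TPM in Alb-Cre+. Its females were again the lowest mice.

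Members near the level that defined them were *Cyp2g1* at 1.24, *Cyp2j9* at 1.80 and *Cyp4f16* at 2.35 TPM just inside, and *Cyp2c55* at 0.741, *Cyp4f18* at 0.664 and *Cyp4f39* at 0.438 TPM just outside. *Cyp2j9* had 1.33, 2.12 and 1.52 TPM in Alb-Cre- and 2.08, 1.96 and 1.81 TPM in Alb-Cre+ mice, and *Cyp4f16* had 1.62, 2.97 and 2.90 TPM in Alb-Cre- and 1.22, 4.76 and 0.602 TPM in Alb-Cre+. The 3 genes just outside lay between 0.209 and 2.01 TPM in single mice. Group means under 1 TPM were found for *Cyp2g1* in Alb-Cre- livers, and for *Cyp2b13* and *Cyp3a44* in males. The members' summed TPM was 8447, 7637 and 11055 in Alb-Cre- and 8304, 7171 and 12472 in Alb-Cre+ mice, or 0.717% to 1.25% of all TPM. Their mean total was 9047 ± 1786 TPM (SD, n = 3) in Alb-Cre- and 9315 ± 2792 TPM (SD, n = 3) in Alb-Cre+, a difference well inside the spread between mice. The 4 genes left out by name, with most of their TPM from *Cyp2e1*, *Cyp4a10* and *Cyp4a14*, carried 13043 to 15315 TPM and more than the members in every mouse but Alb-Cre- replicate 3, where they carried 8821 TPM.

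By subfamily, the Cyp2d sum was 3148, 1833 and 2538 TPM in Alb-Cre- and 3344, 1781 and 4183 TPM in Alb-Cre+ mice. The Cyp2c sum was 2226, 2126 and 1096 TPM in Alb-Cre- and 1855, 1575 and 1489 TPM in Alb-Cre+. The Cyp3a sum was 1311, 1816 and 5459 TPM in Alb-Cre- and 1143, 1431 and 4833 TPM in Alb-Cre+. In each of these sums the genotypes overlapped, and in Cyp3a both replicate 3 mice stood above the other 4. The Cyp4f sum, from genes that include the leukotriene B4 hydroxylase *Cyp4f14*, ranged from 118 to 187 TPM.

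No member differed between Alb-Cre+ and Alb-Cre- livers at the threshold. In limma, fitted over the 14189 genes that averaged 0.1 TPM or more, 0 of 46 members had an adjusted p under 0.01 or under 0.05, and the background was 0.0% of all genes at both. At an unadjusted p under 0.05 there were 2 members, *Cyp2b10* and *Cyp2a12*, against 1.76% of all genes. The smallest adjusted p of a member was 0.9999. The background of 0.0% describes limma on TPM and does not mean that no liver gene differed between genotypes. With its own test on read counts, the paper reported limited changes between genotypes, with *Derl3* higher and several genes of fatty acid synthesis lower. Those calls were not used here. The log2 difference, Alb-Cre+ minus Alb-Cre- on log2(TPM + 0.1), was positive for 22 members and negative for 24, with a median of -0.02 beside -0.002 for all genes tested. It was under 0.5 in size for 37 members. The 95% confidence interval lay within 1 on the log2 scale on both sides for 20 members, so that for the other 26 a 2-fold difference lay inside the interval.

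**Figure D2:**
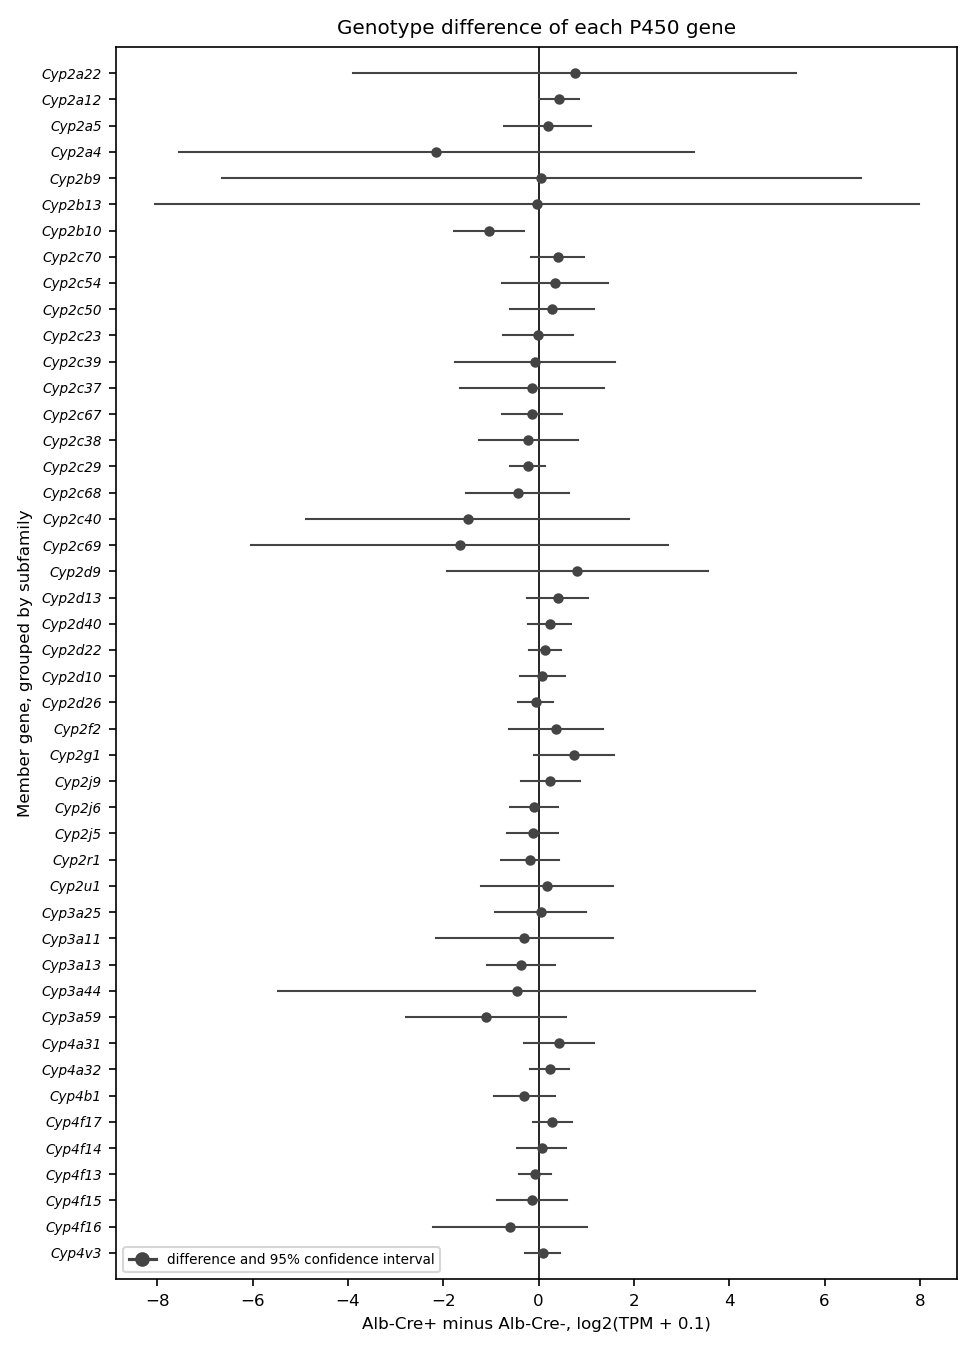
Difference between genotypes of each of the 46 members, Alb-Cre+ minus Alb-Cre- on log2(TPM + 0.1), as a point with its 95% confidence interval from limma, grouped by subfamily. The intervals of Cyp2b10 and Cyp2a12 stop short of 0, and none of the 46 differences has an adjusted p under 0.05.

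*Cyp2b10*, the phenobarbital-inducible enzyme that serves as the classic target gene of CAR, had 29.0, 25.8 and 34.7 TPM in Alb-Cre- and 17.8, 19.2 and 8.63 TPM in Alb-Cre+ livers. All 3 Alb-Cre+ values lay under all 3 control values. Its log2 difference was -1.04 ± 0.31 (SE), with an unadjusted p of 0.0122 and an adjusted p of 0.9999 in limma. *Cyp2a12*, an enzyme known to hydroxylate steroids and bile acids, went the other way without overlap. It had 361, 442 and 326 TPM in Alb-Cre- and 456, 610 and 455 TPM in Alb-Cre+ livers, a log2 difference of 0.43 ± 0.18 (SE) with an unadjusted p of 0.0472 and an adjusted p of 0.9999 in limma. These were the 2 members whose genotypes did not overlap (4.35%), against 4.9% of all genes tested. In male mice alone, a choice made after the sexes had been compared, the log2 difference was -1.35 for *Cyp2b10* and 0.41 for *Cyp2a12*.

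*Cyp2a4* and *Cyp3a59* had larger log2 differences with a wide spread. *Cyp2a4*, a steroid 15-alpha-hydroxylase, had 1.95, 99.5 and 5.86 TPM in Alb-Cre- and 2.18, 52.1 and 0.0171 TPM in Alb-Cre+ mice. Its log2 difference of -2.15 ± 2.29 (SE) was 0.031 without Alb-Cre+ replicate 3, the mouse at 0.0171 TPM. *Cyp3a59* had 9.42, 9.45 and 49.5 TPM in Alb-Cre- and 8.06, 4.09 and 13.2 TPM in Alb-Cre+ mice, with a log2 difference of -1.10 ± 0.71 (SE). Its high value in Alb-Cre- replicate 3 exceeded all the others, and the log2 difference was -0.31 without that mouse and -0.66 without Alb-Cre+ replicate 2.

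Positive log2 differences were found in *Cyp2g1*, *Cyp4a31*, *Cyp2c70* and *Cyp4f17*, and in each of them the genotypes overlapped. *Cyp2g1* had 1.36, 0.586 and 0.822 TPM in Alb-Cre- and 1.26, 1.61 and 1.78 TPM in Alb-Cre+ mice, and since it entered the list through Alb-Cre+ its log2 difference of 0.75 ± 0.35 (SE) is a description. *Cyp4a31*, one of the fatty acid omega-hydroxylases, had 103, 159 and 65.3 TPM in Alb-Cre- and 149, 153 and 114 TPM in Alb-Cre+ mice, a log2 difference of 0.43 ± 0.31 (SE). Its lowest mouse was Alb-Cre- replicate 3. *Cyp2c70*, which makes the muricholic acids of mouse bile, had 57.7, 59.0 and 67.7 TPM in Alb-Cre- and 61.0, 116 and 75.0 TPM in Alb-Cre+ mice, a log2 difference of 0.40 ± 0.23 (SE). The Alb-Cre+ female stood above the other 5 mice. *Cyp4f17* had 9.34, 8.40 and 7.42 TPM in Alb-Cre- and 10.7, 8.80 and 11.3 TPM in Alb-Cre+ mice, a log2 difference of 0.28 ± 0.17 (SE).

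Taking differences within same-numbered mice removed much of the spread, since the median standard error of the members was 0.31 without and 0.16 with the replicate number as a block. With this block 0 of 46 members passed an adjusted p of 0.01 or 0.05 (background 0.0%), and the smallest adjusted p of a member was 0.454. An unadjusted p under 0.05 was reached by 10 members (21.7%) against 4.69% of all genes tested, with 4 of them higher in Alb-Cre+ (background 2.28%) and 6 lower (background 2.42%). They were *Cyp2a22*, *Cyp2c40*, *Cyp2c68*, *Cyp2a12*, *Cyp2c69*, *Cyp2d9*, *Cyp3a59*, *Cyp2b10*, *Cyp2d13* and *Cyp3a11*. Several are near-identical neighbours and do not count as separate evidence. All 3 pairs had the same direction in 19 members (41.3%) against 23.9% of all genes tested, 8 of them higher (background 11.5%) and 11 lower (background 12.4%).

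Within this group, *Cyp2a22* had 3.35, 59.4 and 0.610 TPM in Alb-Cre- and 6.24, 92.8 and 1.10 TPM in Alb-Cre+ mice. Its 3 pair differences were 0.88, 0.64 and 0.75 on the log2 scale, close together although the level itself spanned 152-fold. For *Cyp2d9* the pair differences were 0.17, 1.00 and 1.27 on the log2 scale. *Cyp3a11* had pair differences of -0.26, -0.46 and -0.18 on the log2 scale, and those of *Cyp2b10* were -0.70, -0.42 and -1.99. In every one of these 4 genes the sign was shared by the 3 pairs, while the adjusted p with the block lay between 0.454 and 0.9988. Without the block, the log2 difference of *Cyp2a22* was 0.76 ± 1.97 (SE) and turned to -0.93 without Alb-Cre+ replicate 2 and to -0.69 without Alb-Cre- replicate 3. That of *Cyp2d9* was 0.81 ± 1.16 (SE) and turned to -0.31 without Alb-Cre- replicate 2. Replicate 2 was the only female of each genotype, and leaving out a mouse left the sexes unequal between genotypes. These fits had no sex term, so that the sex differences of both genes entered the values. In male mice alone the log2 differences were 0.82 for *Cyp2a22* and 0.72 for *Cyp2d9*.

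**Figure D3:**
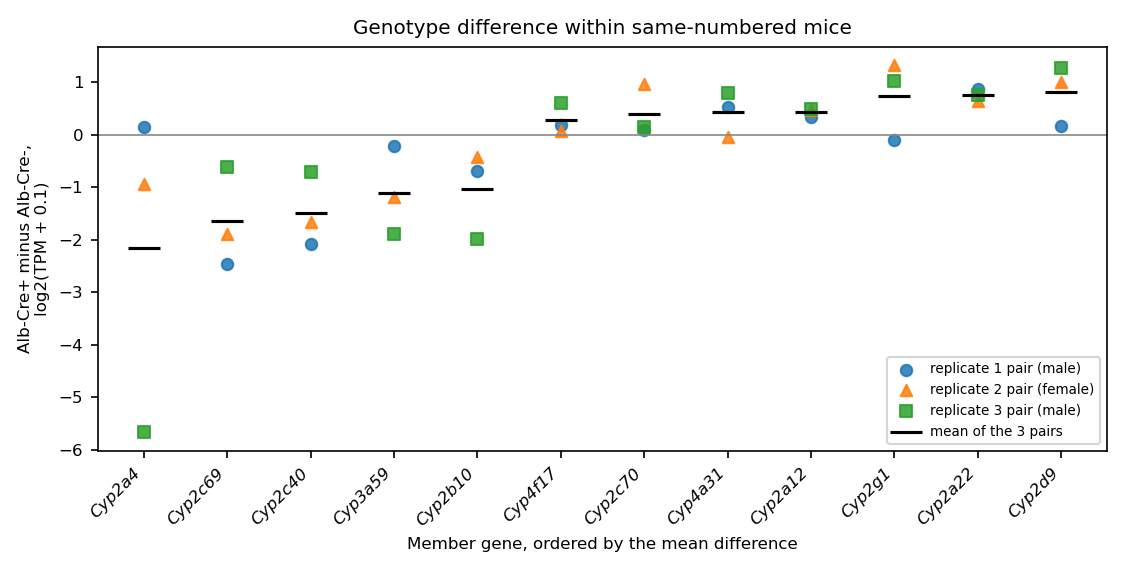
Difference within each same-numbered pair of mice, Alb-Cre+ minus Alb-Cre- on log2(TPM + 0.1), for 12 members named for their p or size of difference. Points are the pairs of replicates 1 and 3 (male) and 2 (female), and the black bar is their mean. Cyp2a22 and Cyp2a12 have 3 close pairs above 0, while those of Cyp2a4 spread from 0.15 to -5.67.

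Of the 11 members that were lower in Alb-Cre+ in all 3 pairs, 6 lay in the Cyp2c cluster on chromosome 19, and the others were *Cyp2b10*, *Cyp3a11*, *Cyp3a59*, *Cyp4b1* and *Cyp4f13*. *Cyp2c40*, which hydroxylates arachidonic acid, had 102, 88.5 and 3.88 TPM in Alb-Cre- and 24.1, 27.7 and 2.32 TPM in Alb-Cre+ mice. Its pair differences were -2.08, -1.67 and -0.72 on the log2 scale. *Cyp2c69* followed it in order and size, with 52.8, 38.8 and 0.644 TPM in Alb-Cre- and 9.54, 10.4 and 0.387 TPM in Alb-Cre+. *Cyp2c68* had 296, 305 and 127 TPM in Alb-Cre- and 222, 224 and 92.2 TPM in Alb-Cre+, and its pairs lay at -0.41, -0.44 and -0.46 on the log2 scale. *Cyp2c67* differed less, with a log2 difference of -0.14 ± 0.27 (SE). Without the block the genotypes overlapped in each of these 4 genes, and the adjusted p was 0.9999 in limma for each. Leaving out a single mouse moved the log2 difference of *Cyp2c40* (-1.49 with all mice) between -3.02 without Alb-Cre- replicate 3 and -0.35 without Alb-Cre+ replicate 3, and that of *Cyp2c69* (-1.65) between -3.63 and -0.19 without the same mice.

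Outside these 4 genes the cluster was mixed. The neighbours *Cyp2c29*, *Cyp2c38*, *Cyp2c39*, *Cyp2c37*, *Cyp2c54*, *Cyp2c50* and *Cyp2c70* had log2 differences between -0.23 and 0.40. *Cyp2c23*, an arachidonic acid epoxygenase that lies apart from the cluster on the same chromosome, had a log2 difference of -0.01 ± 0.31 (SE). The 12 Cyp2c members had a median of -0.14, the 6 Cyp2d members 0.18, the 5 Cyp3a members -0.38 and the 5 Cyp4f members -0.08.

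**Figure D4:**
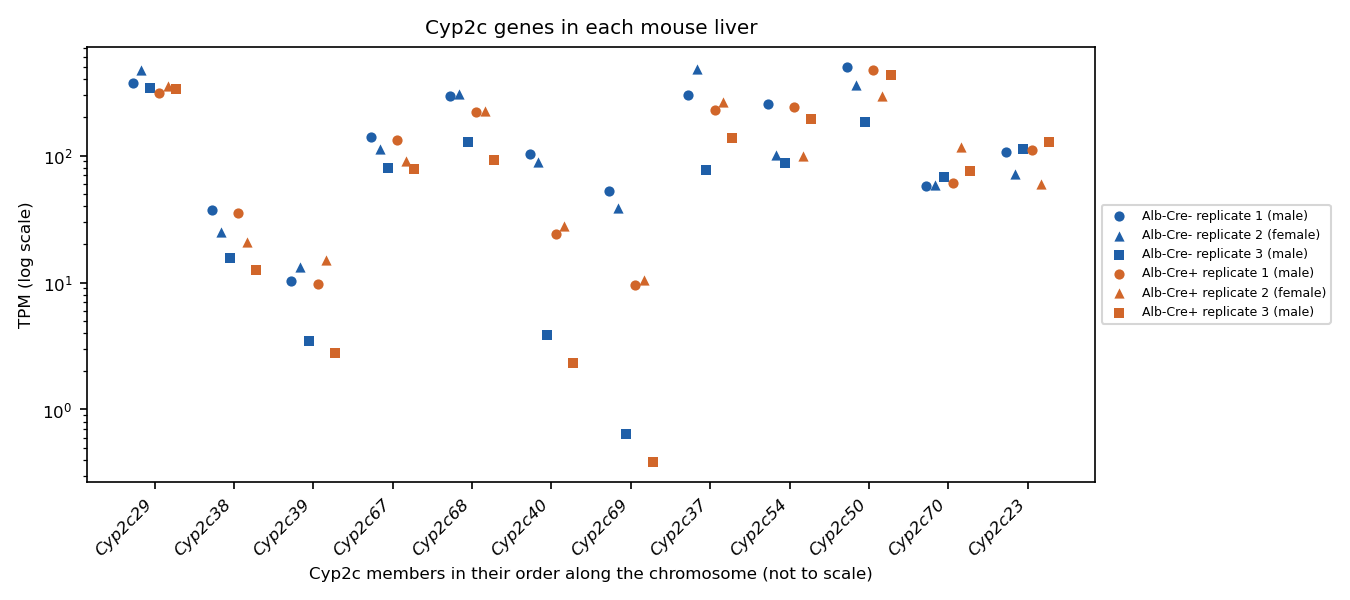
TPM on a log axis for the 12 Cyp2c members in their order along the chromosome, with blue for Alb-Cre-, orange for Alb-Cre+, circles and squares for males and triangles for females. Cyp2c40 and Cyp2c69 are the genes in which orange lies clearly under blue within a number, and the replicate 3 males (squares) are the lowest mice there.

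The sequence of these genes limits how well their transcripts can be told apart. Of all stretches of 31 bases in the transcripts of a gene, 72.6% occurred also in another annotated gene for *Cyp2c40*, 67.6% for *Cyp2c67*, 64.9% for *Cyp2c69* and 62.0% for *Cyp2c68*, mostly in each other. The share was over 50% for 8 and over 20% for 23 of the 45 members with a position in GENCODE M21, with a median of 26.1%. *Cyp2a4* (58.1%, mostly with *Cyp2a5*), *Cyp3a44* (48.4%, most of all with *Cyp3a41a*), *Cyp2b13* (40.8%) and *Cyp2d9* (34.8%) were also affected, *Cyp2b10* (19.5%) less. *Cyp2f2*, *Cyp2c23*, *Cyp2c70* and *Cyp2r1*, the liver 25-hydroxylase of vitamin D, shared none. Values of genes with shared stretches are uncertain to the extent that reads were split among copies.

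Between the sexes 3 members passed the test, of which *Cyp2b13* and *Cyp3a44* had entered the list through their level in females, so that their being higher there is a description. In a limma model with genotype and sex, 3 of 46 members had an adjusted p under 0.01 (6.52%), or 1 of 44 without these 2 (2.27%), beside 0.514% of all genes tested, with 2 of them higher (background 0.331%) and 1 lower (background 0.183%) in females. Each sex difference rests on 2 females that both carry the number 2, so that sex and replicate number cannot be told apart. *Cyp2b13*, known as a female-specific enzyme of mouse liver, was at 81.9 TPM in the Alb-Cre- and 111 TPM in the Alb-Cre+ female, and the replicate 1 males were at 0.0990 and 0.0360 TPM, while both replicate 3 males were listed at 0. Its difference, female minus male on log2(TPM + 0.1), was 9.54 ± 0.37 (SE), with an adjusted p of 0.000174 in limma. *Cyp3a44*, also known as female-specific, was at 15.8 and 10.2 TPM in females and at most 0.435 TPM in males, a difference of 5.78 ± 0.59 (SE) with an adjusted p of 0.00807 in limma. *Cyp2d9* was the gene with lower values in females, with a log2 difference of -3.23 ± 0.23 (SE) and an adjusted p of 0.00228 in limma. The 2 female values, 105 and 209 TPM, lay far under the lowest male at 955 TPM.

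Without either female 0 members passed an adjusted p of 0.01. With TPM rescaled by median of ratios, *Cyp2b13* and *Cyp2d9* did, beside 0.437% of all genes, and *Cyp3a44* had an adjusted p of 0.0113.

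At an adjusted p under 0.05 there were 9 members (19.6%), or 7 of 44 without *Cyp2b13* and *Cyp3a44* (15.9%), beside 7.18% of all genes. At an unadjusted p under 0.05 there were 19 (41.3%), or 17 of 44 without these 2 (38.6%), beside 28.7%. The further 6 were *Cyp2a22* and *Cyp2a4* with higher values in females and *Cyp2u1*, *Cyp2c23*, *Cyp2f2* and *Cyp2j5* with lower ones. *Cyp2u1*, a hydroxylase of long-chain fatty acids, had 1.88 and 1.98 TPM in females and 5.37 to 7.48 TPM in males, a log2 difference of -1.56 ± 0.19 (SE) and an adjusted p of 0.0130 in limma. *Cyp2f2* differed by -1.04 ± 0.21 (SE) and *Cyp2j5*, an arachidonic acid epoxygenase, by -0.55 ± 0.11 (SE) on the same scale. For *Cyp2a22* the log2 difference was 5.16 ± 0.81 (SE), and for *Cyp2a4* it was 5.74 ± 1.16 (SE). *Cyp2c54*, among the 5 largest differences toward males, had 102 and 98.6 TPM in females and 87.9 to 252 TPM in males, a log2 difference of -0.84 ± 0.40 (SE) with an adjusted p of 0.221 in limma.

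**Figure D5:**
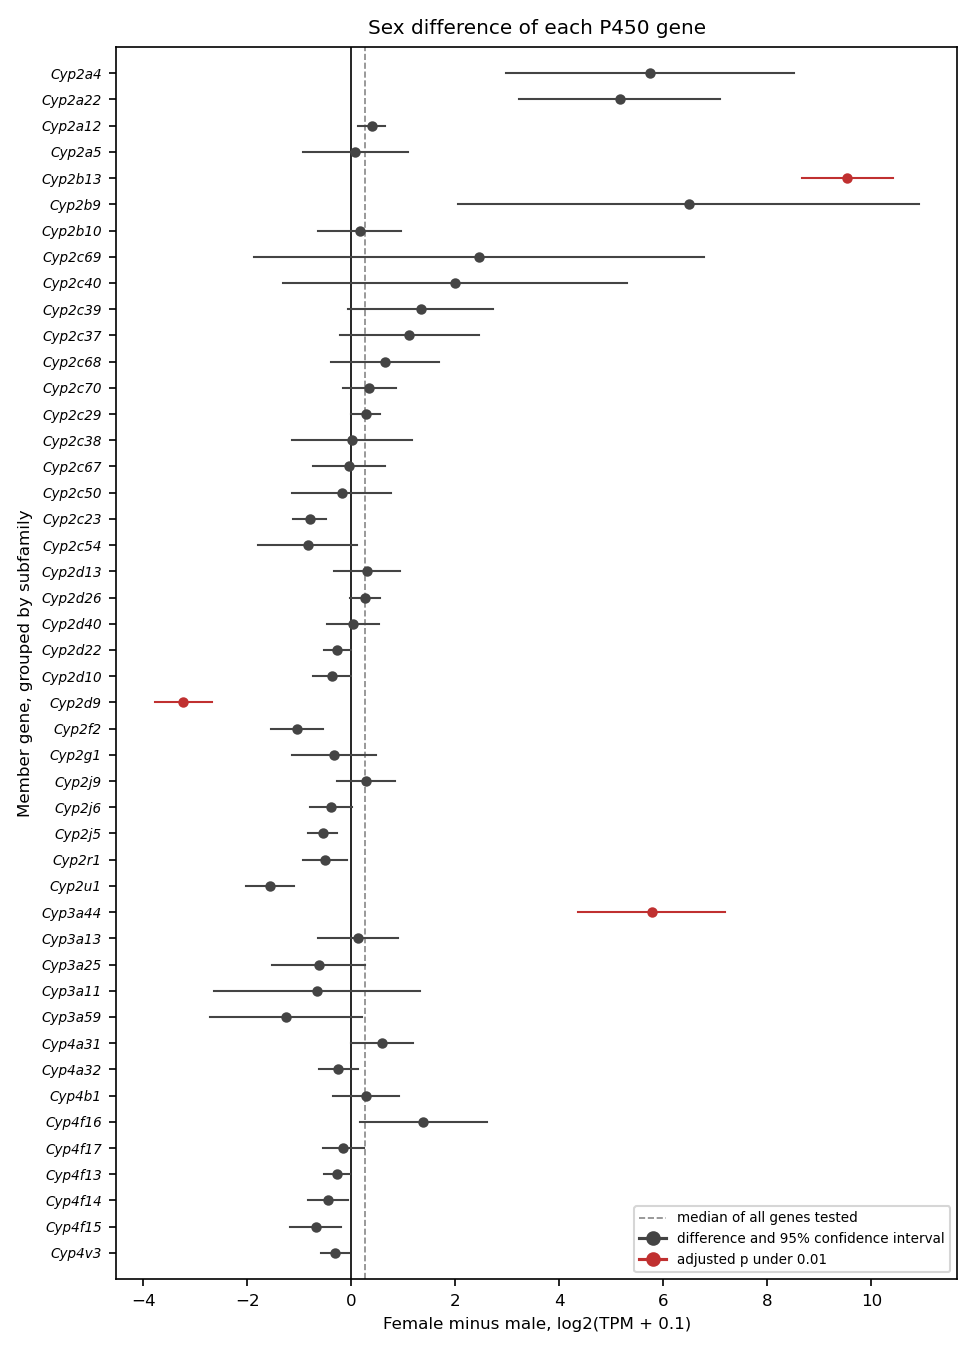
Difference between sexes of each of the 46 members, female minus male on log2(TPM + 0.1) from the model with genotype, with its 95% confidence interval and grouped by subfamily. The dashed line is the median of all genes tested (0.26), and red marks the 3 members with an adjusted p under 0.01. After rescaling by median of ratios, 16 in place of 24 of the 46 points lie above 0 and Cyp3a44 is no longer under 0.01.

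The sex comparison depended on scaling as a whole. The median log2 difference of all genes tested was 0.26 in the deposited TPM and -0.01 after scaling by median of ratios, and that of the members moved with it from 0.02 to -0.26, so that under both scalings the members lay below all genes by a similar amount. At an adjusted p under 0.05 in the deposited TPM, 4 members were higher (8.7%) and 5 lower (10.9%) in females, beside 6.32% and 0.86% of all genes. After rescaling 4 were higher (8.7%) and 10 lower (21.7%), beside 3.88% and 3.18%. The 4 higher were *Cyp2a22*, *Cyp2a4*, *Cyp2b13* and *Cyp3a44* under both scalings. Of these, *Cyp2b13* and *Cyp3a44* had entered the list through their level in females, so that the count of higher members is a description. The 5 lower members added by rescaling were *Cyp2d22*, *Cyp4f13*, *Cyp4f14*, *Cyp4f15* and *Cyp4v3*.

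Markers of other liver cells went with sex too. The 6 Kupffer cell markers summed to 424 to 461 TPM in females and 116 to 181 TPM in males, and none was at 0. All 6 had an unadjusted p under 0.05 in limma, beside 28.7% of all genes tested. The 6 endothelial markers summed to 188 to 206 against 86.2 to 150 TPM, with 3 of 6 higher in females at that p. The 6 stellate markers summed to 237 to 249 against 89.5 to 183 TPM, with 2 of 6 higher. *Dcn* gave most of the stellate sum, and *Col1a1* went the other way (log2 difference -0.22). The 5 erythroid markers summed to 103 to 131 in females against 172 to 408 TPM in males, with 5 of 5 lower. The sums of the 8 hepatocyte markers overlapped, at 79709 to 92785 against 66919 to 92868 TPM. Within that list *Serpina1c* and *Tat* were lower in females at an unadjusted p under 0.05. *Serpina1c* had 3696 and 3611 TPM in females and 6896 to 8425 TPM in males. The 8 periportal hepatocyte markers, which include *Cyp2f2*, summed to 5274 to 5428 TPM in females against 5727 to 7499 TPM in males, with *Cyp2f2*, *Hal* and *Pck1* lower in females at an unadjusted p under 0.05. Without *Cyp2f2* the sums of the other 7 overlapped narrowly in the deposited TPM, at 4912 to 5240 against 5212 to 6904 TPM. The overlap lay between the Alb-Cre- female at 5240 and the Alb-Cre+ replicate 3 male at 5212 TPM. None of these marker sums was rescaled by median of ratios, so that whether they overlap after rescaling is not shown. The 10 pericentral markers summed to 4501 TPM in Alb-Cre- replicate 3 and to 5664 to 8495 TPM in the other mice. The part of these markers in the sex differences was not tested, and in whole liver fewer cells of a type and less RNA per cell cannot be told apart. Between genotypes the sums of all these lists overlapped, but *Apoa1* and *Ttr* of the hepatocyte list did not. *Apoa1* had 17603, 20844 and 15764 TPM in Alb-Cre- and 10222, 9779 and 8802 TPM in Alb-Cre+ mice. Its unadjusted p was 0.00651 and its adjusted p 0.9999 in limma. *Ttr* was at 4852 to 5046 against 3406 to 4281 TPM. The hepatocyte sum was lower in Alb-Cre+ within each same-numbered pair, at 92868, 92785 and 85589 against 89944, 79709 and 66919 TPM. In the replicate 1 pair only *Apoa1* and *Ttr* were lower in Alb-Cre+, and the other markers of the list were higher.

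*Cyp2b9* and *Cyp2b13* had the near-identical upstream sequences shown above and different values in males. *Cyp2b9* had 205 and 219 TPM in the females, 14.5 and 16.5 TPM in the replicate 1 males and 0.270 and 0.246 TPM in the replicate 3 males. *Cyp2b13* stayed under 0.1 TPM in all 4 males. The difference of *Cyp2b9* between the sexes (6.49 ± 1.85, SE, log2 scale) had an adjusted p of 0.0826 in limma. *Cyp2b10*, the third gene of the subfamily, did not follow the sexes, with a difference of 0.17 ± 0.33 (SE). The neighbours *Cyp2a4* and *Cyp2a5* were likewise apart, since *Cyp2a5*, which hydroxylates coumarin, had 187 and 293 TPM in females and 142 to 355 TPM in males.

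The interaction of genotype and sex was called for 0 of 46 members at an adjusted p of 0.01 or 0.05 in limma (background 0.0%), and the smallest adjusted p of a member was 0.775. At an unadjusted p under 0.05 there were *Cyp2f2* and *Cyp2c70* (4.35%) against 6.08% of all genes. With a single female per genotype, this test has little to go on.

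Males of the same genotype also differed from each other. The replicate 3 male differed from the replicate 1 male in the same direction in both genotypes for 28 of 46 members (60.9%), beside 61.4% of all genes tested. Opposite directions were seen in *Cyp2d9*, *Cyp2a4* and *Cyp3a13*, among others. Both replicate 3 males were more than 2-fold from both replicate 1 males in 7 of 46 members (15.2%), against 1.15% of all genes tested, a description for which no test was made. *Cyp3a11* was the member above (background 0.233%), at 4769 and 4202 against 923 and 773 TPM. The 6 below (background 0.916%) were *Cyp2a22*, *Cyp2b9*, *Cyp2c38*, *Cyp2c39*, *Cyp2c40* and *Cyp2c69*. Of these, *Cyp2a22* and *Cyp2b9* were also higher in females than in any male, and so was *Cyp2c39* at 13.4 and 15.1 TPM in females, 10.2 and 9.65 TPM in replicate 1 and 3.46 and 2.77 TPM in replicate 3 males. In *Cyp2c38* the females, at 24.9 and 20.8 TPM, lay between replicate 1 males at 37.4 and 35.5 TPM and replicate 3 males at 15.6 and 12.5 TPM. What separates the replicate 1 from the replicate 3 males is not given in the labels.

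Of related genes outside the list, some differed between the sexes and others did not. *Cyp2e1*, *Cyp1a2*, *Cyp4a10* and *Cyp4a14* differed by -0.004, -0.39, 0.22 and 0.39, female minus male on the log2 scale. Their unadjusted p ranged from 0.120 to 0.989 in limma. *Cyp3a41a*, whose symbol ends in a letter, had 84.8 TPM in the Alb-Cre- and 18.0 TPM in the Alb-Cre+ female and at most 0.167 TPM in males. Nearly all of its sequence (99.9% of stretches of 31 bases) recurs in other genes, mainly *Cyp3a41b*. *Cyp4a12a*, known as a male-specific maker of 20-HETE, had 30.4 and 76.0 TPM in Alb-Cre- and 51.2 and 99.4 TPM in Alb-Cre+ males and under 1 TPM in both females. Among 9 liver genes known as male-biased, 3 had an adjusted p under 0.01 in limma and all 3 were lower in females (*Hsd3b5*, *Mup20* and *Slco1a1*), with a sum of 866 to 1429 TPM in females and 10264 to 23656 TPM in males over the list. Among 8 known as female-biased, 2 passed (*Sult2a1* and *Hao2*), both higher in females, with sums of 1290 to 1358 TPM in females and 20.6 to 44.0 TPM in males. The backgrounds for these directions were again 0.183% and 0.331%. Most of the male-biased sum in males came from *Mup20*, and most of the female-biased sum in females from *Sult2a1*. Male-biased *Serpina12* (log2 difference -0.11) and female-biased *Cux2* (0.33) did not reach an unadjusted p under 0.05 in limma.

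No gene that serves the P450 enzymes passed the test between genotypes, which called 0.0% of all genes tested. Of 9 electron donors and their partners 0 passed an adjusted p of 0.01 between genotypes in limma (background 0.0%). An unadjusted p under 0.05 was reached by 0 of them (background 1.76%), and their median log2 difference was -0.06. *Por*, the reductase that feeds electrons to all microsomal P450 enzymes, had 313, 444 and 408 TPM in Alb-Cre- and 321, 381 and 401 TPM in Alb-Cre+ mice. *Cyb5a*, the cytochrome b5 that assists some of them, was the highest of the list, at 1261 to 1479 TPM. Of 12 genes of haem synthesis and breakdown 0 passed either level between genotypes, beside the same backgrounds. With the replicate block 1 of 12, *Cpox*, was higher in Alb-Cre+ at an unadjusted p of 0.0374 in limma (background 4.69% under 0.05). *Alas1*, the rate-limiting enzyme of haem synthesis, ranged from 191 to 663 TPM in Alb-Cre- and from 288 to 646 TPM in Alb-Cre+ mice.

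Of 26 tested regulators of P450 genes 0 passed an adjusted p of 0.01 between genotypes (background 0.0%) and 1 had an unadjusted p under 0.05 (background 1.76%). This was *Onecut1*, which encodes HNF6, at 2.79, 3.47 and 1.66 TPM in Alb-Cre- and 6.12, 6.26 and 3.24 TPM in Alb-Cre+ mice, with a log2 difference of 0.95 ± 0.37 (SE) and an adjusted p of 0.9999 in limma. Of the xenobiotic receptors, *Nr1i2* ranged from 28.7 to 53.7 TPM over the 6 mice. *Nr1i3* had 83.3, 88.8 and 44.6 TPM in Alb-Cre- and 86.1, 145 and 66.0 TPM in Alb-Cre+ mice. With the replicate block, *Nr1i3*, *Foxa2* and *Onecut1* were higher and *Ppara* lower at an unadjusted p under 0.05 (4 of 26, beside 4.69% of all genes), and none passed after adjustment. Of 12 tested P450 genes of families 5 and above, which include enzymes that make bile acids and steroids, 0 passed between genotypes (background 0.0%). With the replicate block *Cyp7a1*, the rate-limiting enzyme of bile acid synthesis, and *Cyp39a1* were lower in Alb-Cre+ at unadjusted p of 0.00706 and 0.0272 in limma. These were 2 of 12, beside 4.69% of all genes under 0.05. Between sexes *Cyp7b1* passed an adjusted p of 0.01 with 7.11 and 7.62 TPM in females and 34.2 to 58.5 TPM in males.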

How the data were processed

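The authors deposited TPM per transcript and mouse, which add up to 1000000 in each of the 6 mice. The methods state alignment with STAR to GRCm38.92 and quantification with RSEM, the submitters' processing notes also list Salmon, and the table is labelled as Salmon output, so that the quantifier is uncertain. Strandedness was not given in the sources used here. A second deposited table with the authors' DESeq2 comparison (log2 fold changes, errors and p-values) was not used.

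Transcripts were added up by gene symbol, without 163 of 116748 transcripts without a symbol (0.0515% to 0.0887% of TPM). For every gene that averaged 0.1 TPM or more, limma 3.58.1 (R 4.3.3) compared log2(TPM + 0.1) with a variance trend and Benjamini-Hochberg adjustment over all genes (threshold 0.01). This scale understates changes of low genes. The study's test for counts is not run on TPM. Sex was fitted with genotype.

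Same-numbered mice deviated together (correlations of 0.367, 0.588 and 0.37), so that a replicate block was fitted as an alternative. The sources used here do not say whether same-numbered mice shared a litter, or that replicates differ in anything but the animal. Others were sex as covariate, sex alone, pseudocount 1 TPM, no filter, a mean of at least 1 TPM, median of ratios, no trend, thresholds, each mouse left out and, added after the data were seen, male mice alone.

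Per-mouse values were given for the 6 highest members, those past the threshold, those with the 5 smallest genotype p, the 5 largest differences in each direction and those just above 1 TPM, and for sex as female values with the range of the males. Members and gene lists were chosen with earlier results of these data known. On data simulated for 13700 genes, 94.7% of genes changed by 4 and 60.4% of those changed by 2 (log2) between genotypes were called, with 2 unchanged genes called. For sex these shares were 78.7% and 49.5%, with 1 unchanged gene called. The genotype data were simulated with the spread left after genotype and sex, and no sex differences were put in. In the real genotype fit sex differences stay in the spread, and limma shares the spread over genes. The genotype shares may therefore be too high for any gene. They do not hold for members that differ between the sexes, such as *Cyp2b13* with a genotype standard error of 3.40. Positions and shared stretches of 31 bases came from GENCODE M21 and upstream sequences from RefSeq (GRCm38.p6), aligned with Biopython 1.88.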

Additional observations from a re-analysis of the deposited data

Results flagged for a closer look

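Among the 4 males, 3 of the 46 members had a mouse far from the others by Dixon's criterion, which chance meets in about 1 of 20 groups. Cyp2d40 was highest in Alb-Cre+ replicate 3, at 47.5 TPM beside 28.9 to 30.2 TPM in the other males. Cyp2u1 was also highest in Alb-Cre+ replicate 3, at 7.479 TPM beside 5.37 to 5.49 TPM. Cyp3a59 was highest in Alb-Cre- replicate 3, at 49.55 TPM beside 8.06 to 13.2 TPM.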

How the results depend on the processing

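Between genotypes 0 members were called under every alternative at an adjusted p, and the unadjusted p was under 0.05 for 2. The replicate block pairs same-numbered mice, and with it the count was again 0 and the members' median again -0.02. Leaving out each mouse gave medians of -0.103 to 0.077 and a difference of the summed TPM of -1309 to 1341, beside 268.9 with all mice. Without a single mouse the log2 difference ranged from -0.93 to 2.51 for Cyp2a22, from -4.37 to 0.031 for Cyp2a4 and from -0.31 to 1.84 for Cyp2d9, so that each changed sign. It was -0.93 for Cyp2a22 without Alb-Cre+ replicate 2 and -0.69 without Alb-Cre- replicate 3, 0.031 for Cyp2a4 without Alb-Cre+ replicate 3, and -0.31 for Cyp2d9 without Alb-Cre- replicate 2. Leaving out a mouse left the sexes unequal between genotypes, and these fits had no sex term, so that sex differences entered the values. In male mice alone the log2 difference was 0.82 for Cyp2a22, -2.76 for Cyp2a4 and 0.72 for Cyp2d9. The count of called members in male mice alone was 0.

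Between sexes 3 members were called. The count was 9 at an adjusted p of 0.05, 19 at an unadjusted p under 0.05, and 1 without a filter or without a variance trend. Leaving out each mouse gave 0 to 3, with 0 without either female, where the lone female was assumed to vary like the other mice. The causes were not tested. No paired fit for sex was possible because the number 2 marks both females. TPM give no depth, so that no counting error can be stated, and values under 1 TPM rest on an unknown number of reads.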
